A study of Mus musculus with 9 samples.

Results

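The genes around Cd4 on mouse chromosome 6 were followed in bone marrow (BM)-derived Mϕs given IL-4, IL-6 or neither. The 8 genes are Ptms, Lag3, Cd4, Gpr162, P3h3, Gnb3, Usp5 and Spsb2, out of 53379 genes in the deposited table. They were chosen by position around Cd4 and selected on the measured fall of Cd4 and its neighbors with IL-4 in these same libraries, so their values under IL-4 are given as a description without a test. RNA-seq was done on 9 libraries of polyadenylated RNA, with 3 libraries for each of the groups. BM cells of C57BL/6 mice were cultured for 3 days with 10 ng/ml MCSF, which drives their differentiation into Mϕs. According to the sample labels, control Mϕs then stayed in 10 ng/ml MCSF for 4 days, IL-4-treated Mϕs received MCSF with 10 ng/ml IL-4, and IL-6-treated Mϕs received MCSF with 100 ng/ml IL-6. The study's methods give the same times and IL-6 dose but another IL-4 dose, and its legends give another dose and time, so the exposure behind each group is not settled. The study states 3 mice, and the labels do not say that libraries of the same number came from the same mouse.

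CD4 is a transmembrane glycoprotein of the immunoglobulin superfamily. It is best known as the co-receptor with which helper T cells bind MHC class II molecules, and it is also found on some monocytes, Mϕs and plasmacytoid dendritic cells. LAG3 is a related inhibitory receptor that binds MHC class II as well, and its gene lies next to Cd4. Gpr162 encodes an orphan G protein-coupled receptor. P3h3 encodes a member of the prolyl 3-hydroxylase family, endoplasmic reticulum proteins that act on collagen. Ptms encodes parathymosin, a small acidic protein. Gnb3 encodes a beta subunit of heterotrimeric G proteins best known from the retina. Usp5 encodes a deubiquitinase that takes apart free ubiquitin chains, and Spsb2 encodes a SOCS box protein that directs the inducible nitric oxide synthase to degradation. IL-4 signals mainly through STAT6, and IL-6 mainly through STAT3.

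The genes are compact and mostly share 1 orientation. Cd4 lies on the minus strand at chr6:124864692-124888221 (GRCm38, GENCODE M21). Downstream of Cd4, Gpr162 (chr6:124858444-124863983) begins after 708 bases, P3h3 (chr6:124841089-124857752) after another 691 bases and Gnb3 (chr6:124834240-124840275) after another 813 bases, all on the minus strand. Usp5 (chr6:124815019-124829484) follows on the minus strand, and Spsb2 (chr6:124808661-124810619) lies beyond it on the plus strand. The 8 genes are not an unbroken row. Cdca3 (chr6:124829547-124833701) lies between Gnb3 and Usp5, and Tpi1 (chr6:124810586-124814296) between Usp5 and Spsb2. Both were counted among the other neighbors of Cd4. Upstream, Lag3 (chr6:124904361-124911705) is separated from Cd4 by 16139 bases, and Ptms (chr6:124913681-124920103) from Lag3 by 1975 bases, both on the minus strand. No exon base of the first 7 genes is shared with another gene, while Spsb2 shares 34 exon bases with Tpi1. Fragments in those 34 bases could be counted for either gene.

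RefSeq promoter windows on GRCm38.p6, from 250 bases before to 50 bases after a gene's start, were given for 3 of the 8 genes, P3h3, Ptms and Spsb2. The stretches of these windows that hold no exon are shown because P3h3 was much lower with IL-4, Ptms moderately lower, and Spsb2 overlapped between the groups. The P3h3 stretch (chr6:124857753-124857967, minus strand) lies in the gap between Gpr162 and P3h3, the Ptms stretch is chr6:124917947-124918196 on the minus strand, and the Spsb2 stretch is chr6:124808780-124808884 on the plus strand. The RefSeq starts behind these windows differ from the M21 gene starts given above. By the M21 bounds the Ptms and Spsb2 stretches lie inside their genes, and only the P3h3 stretch lies before its gene. Capitals mark the letters GAGGAA, the core that PU.1 recognizes, on either strand, and here each match reads TTCCTC.
P3h3: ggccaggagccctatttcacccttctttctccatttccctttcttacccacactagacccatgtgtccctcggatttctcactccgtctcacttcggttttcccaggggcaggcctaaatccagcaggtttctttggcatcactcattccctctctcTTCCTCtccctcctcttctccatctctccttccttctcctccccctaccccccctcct
Ptms: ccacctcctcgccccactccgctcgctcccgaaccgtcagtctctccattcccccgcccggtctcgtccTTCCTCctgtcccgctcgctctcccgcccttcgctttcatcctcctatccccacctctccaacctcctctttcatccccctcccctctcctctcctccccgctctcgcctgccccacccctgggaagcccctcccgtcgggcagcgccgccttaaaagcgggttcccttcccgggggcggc
Spsb2: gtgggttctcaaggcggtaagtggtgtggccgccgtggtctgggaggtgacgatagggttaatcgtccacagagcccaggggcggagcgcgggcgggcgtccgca
The whole P3h3 window held 2 GAGGAA matches, the Ptms window 1 and the Spsb2 windows 0, and 28.3% of 32851 RefSeq promoter windows held at least 1. The STAT6-type palindrome had 0 matches in these windows and was found in 6.95% of all windows. TTCNNNGAA, the spacing of other STAT proteins, had 0 matches against 8.3% of all windows, and TGTGGT, the RUNX core, had 0 against 16.8%. All motifs were searched on both strands, and a GAGGAA match can share its last bases with the STAT motifs. A match is a description of letters only.

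Each library held between 29988160 and 39909571 fragments, recovered from the steps of the FPKM values (fragments per kilobase of exon and per 1000000 fragments). Genes with a mean of at least 0.5 FPKM over the 9 libraries were tested, 12824 in all, and 7 of the 8 locus genes passed, all but Gnb3. A gene was called where limma gave an adjusted p under 0.05 on log2(FPKM + 0.1) and the log2 fold change was 1 or more in either direction. All 8 macrophage markers passed the filter and their summed level was 16662 to 18966 FPKM in control, 6021 to 7062 in IL-4-treated and 20369 to 21461 in IL-6-treated Mϕs, with Adgre1, Csf1r, Fcgr1, Lyz2 and Cd14 called lower with IL-4 (3 of the 5 without IL-4 library 3). Itgam, the CD11b gene, went the other way in part, at 72.3, 70.7 and 37.2 FPKM in the IL-4 libraries against 33.7 to 36.8 in control, and was called higher only without IL-4 library 3. Over all tested genes 8.89% were called lower with IL-4 and 5.02% higher. The libraries stood apart in 2 sets by fragments of Paneth and goblet cell genes other than Lyz1. There were 871 to 1126 such fragments in the 3 control libraries and IL-4 library 1, and 3 to 8 in the other 5 libraries. Control and IL-6-treated Mϕs therefore never shared a set, and values within the first set are given beside the IL-4 results of the tested locus genes. Any adjustment for library set rests only on the difference between IL-4 library 1 and IL-4 libraries 2 and 3.

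Cd4, Gpr162 and P3h3, which lie next to each other, were almost lost from IL-4-treated Mϕs, while Usp5 and Spsb2 on 1 side and Lag3 on the other kept 56.1% or more of their control level, and Ptms, beyond Lag3, was at 46.2% of it. Cd4 was at 33.3, 36.2 and 34.3 FPKM in the control libraries, 0.348, 0.802 and 0.429 in the IL-4 libraries and 43.2, 48.5 and 48.6 in the IL-6 libraries. Those values rest on 4378 to 4858 fragments per control library and 48 to 98 per IL-4 library. Every IL-4 library was far below every other library, and every IL-6 library was above every control library. The means were 34.6 ± 1.49, 0.526 ± 0.242 and 46.8 ± 3.06 FPKM (SD, n = 3 each). IL-4-treated Mϕs held 1.52% of the control level, a 65.7-fold difference, with a log2 fold change of −5.86 ± 0.24 (SE). In the first set of libraries, IL-4 library 1 was 99.4-fold below the mean of the control libraries.

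Gpr162 showed the deepest fall of all 12824 tested genes on the log2 scale. Its control libraries were at 28.7, 32.9 and 29.7 FPKM, its IL-4 libraries at 0.229, 0.318 and 0.0979, and its IL-6 libraries at 40.0, 43.1 and 41.7. The IL-4 values stand on only 15 to 37 fragments per library, against 3785 to 3994 in the control libraries, so their level is less precisely known than the control level. As for Cd4, the 3 groups did not overlap. The means were 30.4 ± 2.18, 0.215 ± 0.111 and 41.6 ± 1.52 FPKM. IL-4-treated Mϕs held 0.706% of the control level, with a log2 fold change of −6.66 ± 0.25 (SE). Cd4 ranked 3 by this measure, behind the scavenger receptor gene Marco at rank 2. Within the first set the difference for Gpr162 was 133-fold.

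P3h3, the next gene downstream, was lower by a smaller factor. Control libraries held 6.17, 5.57 and 5.03 FPKM, IL-4 libraries 0.514, 0.378 and 0.434, and IL-6 libraries 6.73, 6.30 and 6.88. The IL-4 libraries lay close together and well below the others, while the IL-6 libraries were slightly above the control libraries. The means were 5.59 ± 0.567, 0.442 ± 0.0683 and 6.64 ± 0.300 FPKM. With IL-4 the level was 7.90% of control, a log2 fold change of −3.40 ± 0.15 (SE) and rank 73 among the tested genes. The difference was 10.9-fold within the first set.

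Upstream of Cd4, Ptms was the most abundant gene of the locus. Its control libraries were at 197, 278 and 231 FPKM, its IL-4 libraries at 75.2, 88.3 and 162, and its IL-6 libraries at 236, 245 and 240. The IL-4 libraries were all lower, but library 3 was nearer to the control libraries than to the other IL-4 libraries. The mean was 2.17-fold lower with IL-4, with a log2 fold change of −1.18 ± 0.27 (SE), and −1.51 without IL-4 library 3. Within the first set IL-4 library 1 was 3.13-fold below the control mean. The call of Ptms did not hold under 6 of 21 alternatives, including rescaling each library by its median ratio, where the log2 fold change was −0.98, and leaving out control library 2 or 3 or IL-4 library 1 or 2.

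Lag3 was weakly expressed throughout. Its control libraries were at 2.54, 3.72 and 2.82 FPKM, its IL-4 libraries at 1.78, 1.44 and 1.88, and its IL-6 libraries at 1.96, 2.79 and 3.57. The IL-4 libraries were below all other libraries by a small margin, and the IL-6 libraries overlapped the control libraries. The control mean was 1.78-fold above that of IL-4-treated Mϕs, a log2 fold change of −0.79 ± 0.25 (SE), and the difference was 1.70-fold within the first set. By the size of the log2 fold change, Ptms lay just inside the threshold and Lag3 just outside it.

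On the far side of the locus, Usp5 and Spsb2 overlapped between control and IL-4. Usp5 was at 30.7, 33.7 and 32.5 FPKM in control, 30.8, 30.7 and 29.0 in IL-4-treated and 29.0, 29.4 and 28.5 in IL-6-treated Mϕs. Its log2 fold change with IL-4 was −0.10 ± 0.09 (SE), it was 0.10 when libraries were rescaled by their median ratio, and IL-4 library 1 was 1.05-fold below the control mean within the first set. Spsb2 was at 22.2, 30.8 and 25.3 FPKM in control, 15.4, 19.3 and 33.0 in IL-4-treated and 18.2, 23.8 and 22.8 in IL-6-treated Mϕs. IL-4 library 3 was the highest of all and the other IL-4 libraries were below every control library, so the groups overlapped. Spsb2 had a log2 fold change of −0.27 ± 0.27 (SE) with IL-4, which was −0.58 without IL-4 library 3 and −0.74 after adjustment for library set. Within the first set it was 1.69-fold lower. Gnb3, which lies between P3h3 and Usp5, was near the limit of detection, with 6, 10 and 8 fragments in the control libraries, 16, 7 and 5 in the IL-4 libraries and 10, 4 and 9 in the IL-6 libraries. At this depth no change of Gnb3 could be seen in either direction.

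**Figure D1:**
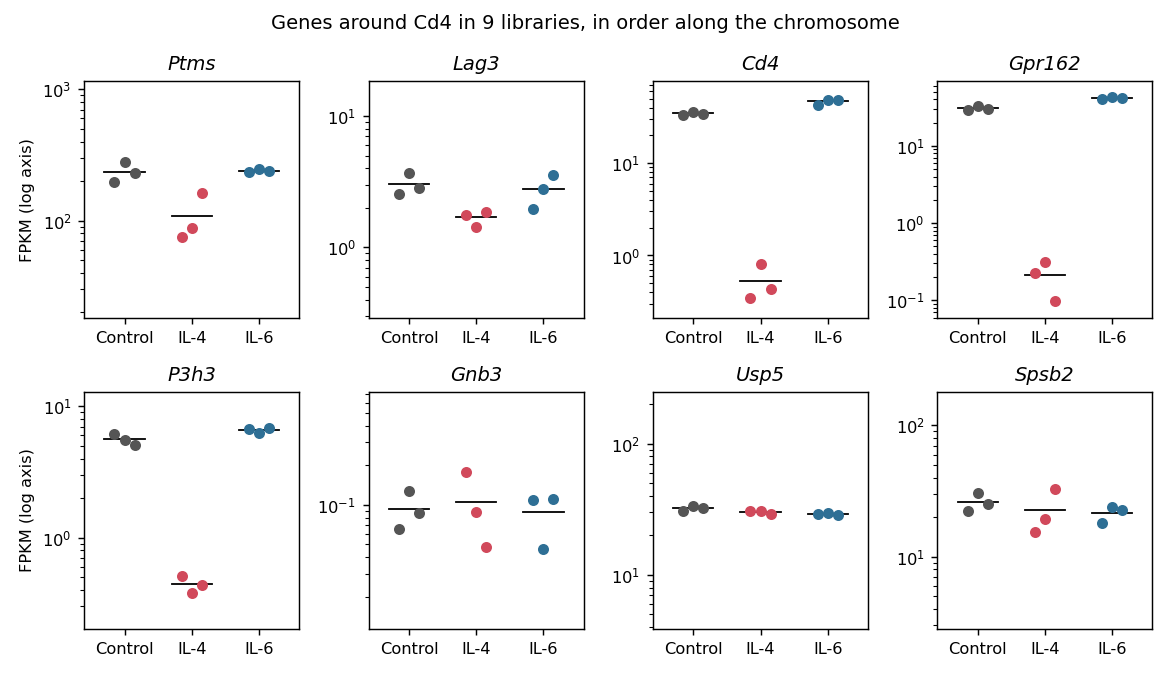
FPKM of the 8 locus genes on log axes in 3 control, 3 IL-4 and 3 IL-6 libraries, with points for libraries and bars for group means, in order along the chromosome. Cd4, Gpr162 and P3h3 fall in all 3 IL-4 libraries, to 0.348 to 0.802, 0.0979 to 0.318 and 0.378 to 0.514 FPKM, while Gnb3, Usp5 and Spsb2 overlap between control and IL-4.

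Of the 7 genes that passed the filter, 4 were called lower with IL-4 (Gpr162, Cd4, P3h3 and Ptms), where 8.89% of all tested genes were called lower and 5.02% higher. In 5 of 7, those 4 and Lag3, the IL-4 libraries did not overlap the control libraries and were lower, as in 26.8% of all tested genes. Both counts describe the genes as chosen. Over all tested genes the median of the log2 fold changes was −0.20, and it moved to −0.01 with median-ratio rescaling, so small negative values such as that of Usp5 do not set a gene apart. A log2 fold change of −3 or below was seen in 105 tested genes (0.819%). In bulk RNA, fewer cells that carry these transcripts and less transcript per cell cannot be told apart.

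The 3 neighbors did not keep a fixed ratio. Gpr162 was at 0.864, 0.908 and 0.864 of the Cd4 level (FPKM) in the control libraries and at 0.926, 0.888 and 0.858 in the IL-6 libraries. In the IL-4 libraries it was at 0.657, 0.397 and 0.228. P3h3 was at 0.147 to 0.185 of Cd4 in the control libraries and 0.130 to 0.156 in the IL-6 libraries, against 0.471 to 1.47 in the IL-4 libraries. Thus Gpr162 was lower relative to Cd4 in every IL-4 library and P3h3 higher in every one, with no overlap. The IL-4 ratios rest on few fragments per library, 15 to 37 for Gpr162, 45 to 69 for P3h3 and 48 to 98 for Cd4. The ratio of any single IL-4 library is therefore imprecise. Lag3 was at 0.0764 to 0.103 of Cd4 in control and 1.79 to 5.10 in IL-4-treated Mϕs, so that the order of the neighbors was turned around. These ratios come from the contrast on which the genes were chosen and are given without a test.

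**Figure D2:**
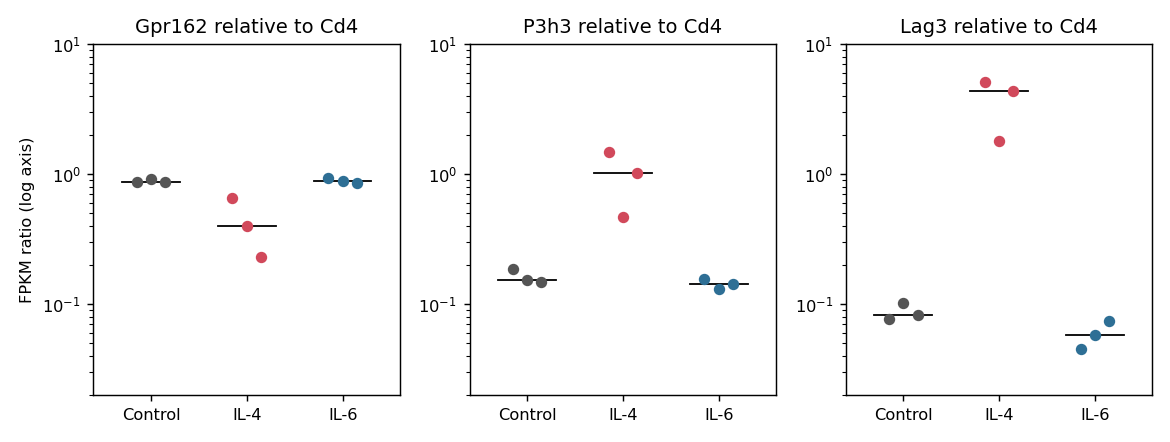
FPKM of Gpr162, P3h3 and Lag3 divided by that of Cd4 in the same library, on log axes, with points for the 3 libraries of each group and bars for medians. Gpr162 stays between 0.858 and 0.926 of Cd4 in control and IL-6 libraries and drops to 0.228 to 0.657 with IL-4, while P3h3 and Lag3 rise relative to Cd4 with IL-4.

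In control Mϕs the order of the mean levels was Ptms at 235, Cd4 at 34.6, Usp5 at 32.3, Gpr162 at 30.4, Spsb2 at 26.1, P3h3 at 5.59, Lag3 at 3.03 and Gnb3 at 0.0929 FPKM. Each gene from Cd4 to Spsb2 overlapped its neighbor in this order, whereas Ptms, P3h3, Lag3 and Gnb3 were each separated from the next gene above or below by more than their spread. In IL-4-treated Mϕs the order was Ptms at 109, Usp5 at 30.2, Spsb2 at 22.6, Lag3 at 1.70, Cd4 at 0.526, P3h3 at 0.442, Gpr162 at 0.215 and Gnb3 at 0.104 FPKM. Cd4 and P3h3 overlapped there, and so did Usp5 and Spsb2 and Gpr162 and Gnb3. Lag3, far below Cd4 in control Mϕs, was above it in every IL-4 library. In IL-6-treated Mϕs Ptms was at 241, Cd4 at 46.8, Gpr162 at 41.6, Usp5 at 29.0, Spsb2 at 21.6, P3h3 at 6.64, Lag3 at 2.77 and Gnb3 at 0.0889 FPKM, each apart from the next.

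IL-6 was compared with control as a contrast that the choice of genes did not use, although it shares the control libraries. By limma 0 of the 7 genes were called, where 5.38% of all tested genes were called in either direction and 3.49% higher, 0 had an unadjusted p under 0.05, and limma voom on the recovered fragments called 0. Cd4 had a log2 fold change of 0.43 ± 0.24 (SE; adjusted p = 0.359), a 1.35-fold higher mean, but −0.19 when the fit was adjusted for the set of a library. That adjustment carries over a difference among the IL-4 libraries, which held only 48 to 98 fragments of Cd4 each. It cannot separate set from treatment for IL-6 against control. Gpr162 had 0.45 ± 0.25 (SE; adjusted p = 0.359), a 1.37-fold higher mean, and P3h3 0.25 ± 0.15 (SE; adjusted p = 0.42). All 3 IL-6 libraries were above all control libraries for Cd4, Gpr162 and P3h3, as in 20% of all tested genes, and below them for Usp5, as in 23.2%. The exact permutation test (two-sided) gave p = 0.1 for each of these 4 genes, the smallest value that 3 against 3 libraries allow. When only the control and IL-6 libraries were fitted, the adjusted p of limma was 0.0115 for Cd4 and 0.0098 for Gpr162, with the log2 fold changes still below 1.

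For the remaining tested genes of the locus the log2 fold changes with IL-6 were 0.05 for Ptms (adjusted p = 0.94), −0.15 for Lag3 (adjusted p = 0.785), −0.16 for Usp5 (adjusted p = 0.405) and −0.27 for Spsb2 (adjusted p = 0.644). After adjustment for library set, which rests on the IL-4 libraries alone, Ptms had −0.62 and Spsb2 −0.98. None of these sizes reached the threshold under any of the alternatives run for them. Set directly against each other, IL-6-treated Mϕs were above IL-4-treated Mϕs 88.8-fold for Cd4, 193-fold for Gpr162, 15.03-fold for P3h3 and 2.22-fold for Ptms. These 4 of 7 genes were called higher, where 13.6% of all tested genes were, and the IL-4 libraries that define the choice enter here too. Within the second set of libraries, IL-6-treated Mϕs were 76.0-fold above IL-4 libraries 2 and 3 for Cd4, 199.9-fold for Gpr162 and 16.4-fold for P3h3.

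To see how far the fall with IL-4 extended, all other protein-coding genes within 500 kb of Cd4 were taken by position alone. There were 39 of them and 31 were tested. With IL-4, 4 were called lower and 1 higher, where 8.89% of all tested genes were called lower and 5.02% higher. The median log2 fold change of the 31 was −0.35 against −0.20 for all tested genes, and none was below −2.04. In 14 of the 31 all IL-4 libraries were below all control libraries, against 26.8% of all tested genes, and in 8 all were above. Among the 5 tested within 100 kb, 3 were below in this way and 1 above. The share of all tested genes with all IL-4 libraries above is not given here, so the counts above are a description only. Within 100 kb of Cd4, 0 of 5 tested neighbors were called lower by limma, of which 3, Mlf2, Cops7a and Eno2, had an unadjusted p under 0.05 with a log2 fold change below 0, and voom, which had 4 of the 5, called 0. Mlf2, a gene of a myeloid leukemia factor and the nearest tested neighbor upstream with its start 43.2 kb away, had −0.45 (adjusted p = 0.0433), below the fold threshold. Cops7a, which encodes a COP9 signalosome subunit, had −0.35 (adjusted p = 0.0594). On the other side Cdca3, a cell division gene whose start lies 58.7 kb from that of Cd4 and beyond Gnb3, was called higher. It was at 2.83, 5.18 and 5.04 FPKM in control and 9.78, 9.41 and 7.35 in IL-4-treated Mϕs, with a log2 fold change of 1.05 (adjusted p = 0.0165). The call of Cdca3 did not hold with a pseudocount of 1, with only the groups compared or after adjustment for library set. Nor did it hold without control library 1 or IL-4 library 1 or 2. Tpi1, a glycolytic enzyme gene next to Spsb2, had 0.21 with IL-4.

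**Figure D3:**
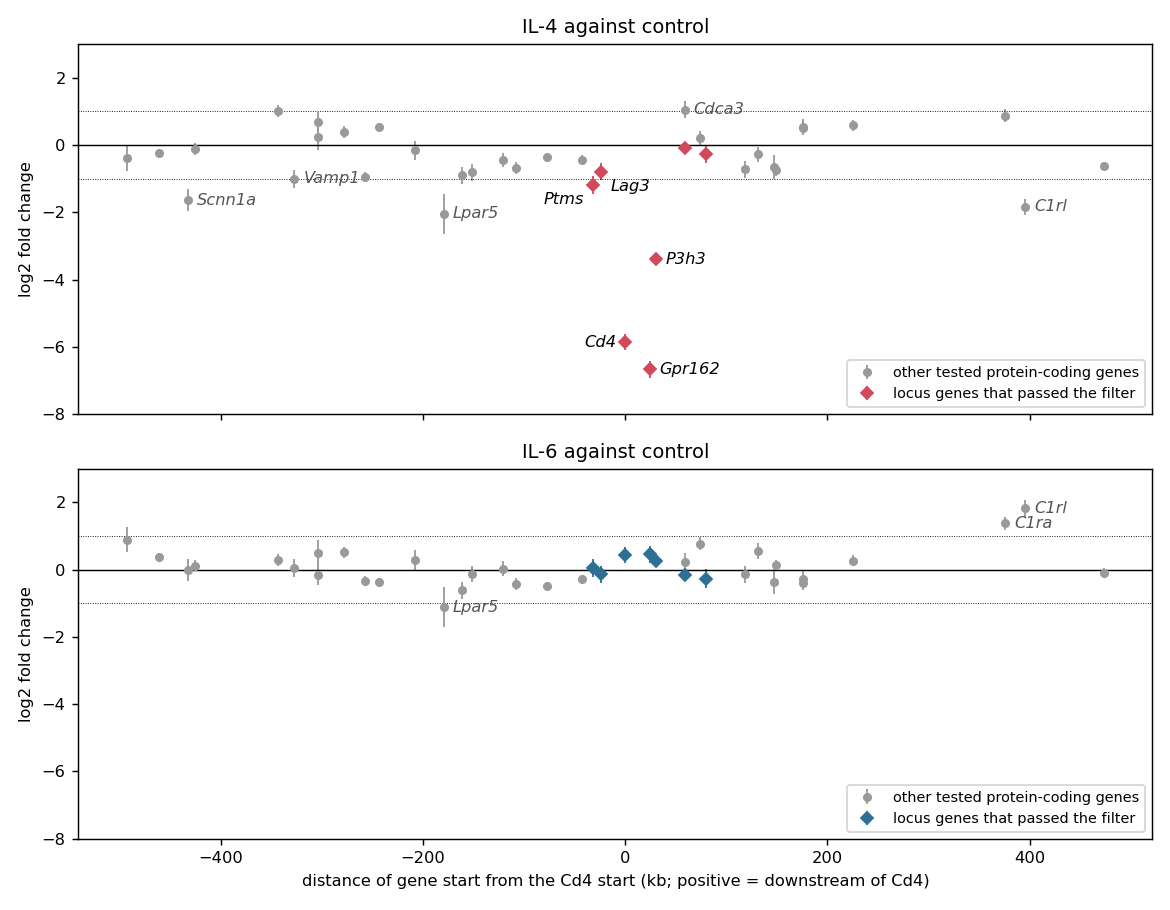
Log2 fold change with its standard error for the 7 locus genes that passed the filter (diamonds) and 31 other tested protein-coding genes (grey) within 500 kb, by distance of the gene start from the Cd4 start in kb, for IL-4 (top) and IL-6 (bottom) against control, with dotted lines at −1 and 1. With IL-4 only Cd4, Gpr162 and P3h3 lie below −3 in this window, and with IL-6 the locus genes lie between −0.27 and 0.45.

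The neighbors called lower with IL-4 lay farther away. C1rl, which encodes a complement C1r-like protease, starts 395 kb from Cd4 and was at 2.10, 2.07 and 1.55 FPKM in control, 0.710, 0.362 and 0.358 in IL-4-treated and 7.46, 6.72 and 6.62 in IL-6-treated Mϕs. The 3 groups did not overlap. Its log2 fold change was −1.84 with IL-4 (adjusted p = 0.00116) and 1.82 with IL-6 (adjusted p = 0.00369), and the call with IL-4 did not hold with a pseudocount of 1. Scnn1a, which encodes the alpha subunit of the epithelial sodium channel, was at 1.57, 2.14 and 2.15 FPKM in control and 0.885, 0.575 and 0.315 in IL-4-treated Mϕs, with a log2 fold change of −1.64 (adjusted p = 0.00787). The call of Scnn1a did not hold with a pseudocount of 1 or after adjustment for library set.

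Lpar5, which encodes a lysophosphatidic acid receptor, was at 14.7, 8.98 and 9.90 FPKM in control, 4.98, 4.23 and 0.777 in IL-4-treated and 5.15, 4.83 and 4.96 in IL-6-treated Mϕs. IL-4 library 3 was far below the other IL-4 libraries, and the log2 fold change was −2.04 (adjusted p = 0.0383). Vamp1, which encodes a vesicle SNARE protein, had −1.003 with IL-4 (adjusted p = 0.0275). The call of Lpar5 did not hold in 10 of 21 alternatives, among them leaving out any 1 control or IL-6 library. That of Vamp1 did not hold in 13 of 20, among them leaving out any 1 control library, IL-4 library 3, or IL-6 library 2 or 3. Without control library 1 or 2, or without IL-6 library 2 or 3, the count of neighbors called lower was 2 instead of 4. With IL-6, C1rl and C1ra, which encodes the complement protease C1r, were the 2 neighbors called. Both were higher, where 3.49% of all tested genes were called higher. C1ra was at 0.990, 0.738 and 0.774 FPKM in control and 2.05, 2.42 and 2.47 in IL-6-treated Mϕs, with a log2 fold change of 1.37 (adjusted p = 0.00403), a call that did not hold with a pseudocount of 1 or after adjustment for library set. Between IL-6 and IL-4, C1rl, Scnn1a, Vamp1 and Plekhg6 were the 4 called neighbors, all higher with IL-6, where 13.6% of all tested genes were. The call of Plekhg6 did not hold in 12 of 20 alternatives.

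The profile of each of the 3 receptor genes over the 9 libraries was compared with that of the 12823 other tested genes, by the root mean square difference of gene-centered log2 values. Gpr162 was the gene most like Cd4 (0.45), and Cd4 the gene most like Gpr162. After Gpr162, the genes nearest to Cd4 were Adgre4, an adhesion G protein-coupled receptor gene (0.56), Fcnb, which encodes ficolin-B (0.73), Cx3cr1, the fractalkine receptor gene (0.75), and Cxcl10, a chemokine gene (0.79), all on other chromosomes. After Cd4, those nearest to Gpr162 were Marco (0.71), Adgre4 (0.76), F13a1, which encodes the A subunit of coagulation factor XIII (0.77), and Fcnb (0.86). P3h3 ranked 36 for Cd4 and 41 for Gpr162, with a difference of 1.25 and 1.62. Lag3 was most like Mirt2 (0.12), Tbc1d10c (0.14), Tbc1d10a (0.16), Tmem51 (0.17) and Gadd45b (0.17). Cd4 ranked 12761 for Lag3, while Lag3 ranked 2865 for Cd4. The measure grows with the size of a change, so a large and a small fall in the same direction stand far apart. The same 9 libraries enter for every gene, and Cd4, Gpr162 and their nearest genes share a large IL-4 difference. P3h3 and Lag3 have fewer fragments than Cd4 in the control and IL-6 libraries. In the IL-4 libraries Lag3 had 92 to 158 fragments and P3h3 45 to 69, against 48 to 98 for Cd4.

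Markers of other cells that carry Cd4 were read beside it. The T cell receptor complex genes Cd3d, Cd3e, Cd3g and Trac had 4 to 11 fragments each in the control libraries, 10 to 85 in the IL-4 libraries and 1 to 25 in the IL-6 libraries, where Cd4 had 4378 to 4858, 48 to 98 and 6014 to 6382. Their summed level was 0.418 to 0.527 FPKM in control and 1.12 to 2.70 in IL-4-treated Mϕs, so their sum was higher where Cd4 was lower. Cd3e by itself overlapped, with 10, 4 and 7 fragments in the control libraries and 10, 36 and 10 in the IL-4 libraries. The list of 16 T cell markers was summed at 26.4 to 40.0 FPKM in control, 11.2 to 12.7 in IL-4-treated and 13.2 to 16.2 in IL-6-treated Mϕs. Of its 5 tested genes Lck and Trbc2 were called higher with IL-4 and Cd28, a co-stimulatory receptor gene at a mean of 29.7 FPKM in control and 3.54 with IL-4, was called lower. Over all tested genes 5.02% were called higher with IL-4 and 8.89% lower. Neither the call of Lck nor that of Trbc2 held with a pseudocount of 1 or after adjustment for library set, nor did that of Trbc2 without control library 1 or 2 or IL-4 library 2. Of a list of 8 plasmacytoid dendritic cell markers, Siglech and Ccr9 were called lower with IL-4, as Cd4 was. The 7 tested genes of that list had a median log2 fold change of 0.06 with IL-4, and 1 was called higher. Siglech and Ccr9 had 489 to 663 fragments together in the control libraries, 94 to 189 in the IL-4 libraries and 402 to 710 in the IL-6 libraries. With IL-4 the log2 fold change was −1.75 for Siglech (adjusted p = 0.00599) and −1.73 for Ccr9 (adjusted p = 0.0117), and neither call held after adjustment for library set.

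**Figure D4:**
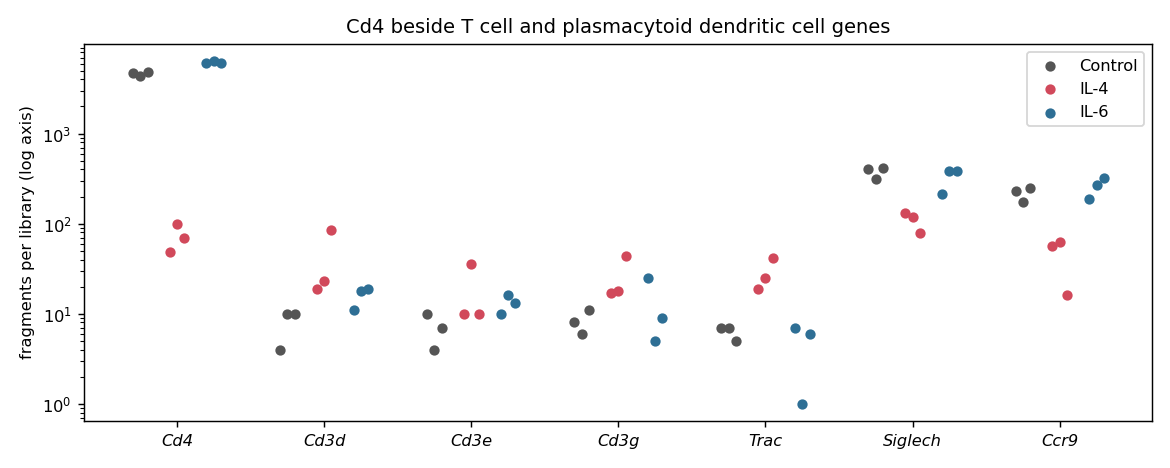
Fragments per library on a log axis for Cd4, for 4 T cell receptor complex genes and for 2 plasmacytoid dendritic cell genes, with points for the 3 libraries of each group. In control libraries Cd4 has 4378 to 4858 fragments while no T cell gene shown has more than 11. The 4 are from a list of 16 T cell markers, summed at 26.4 to 40.0 FPKM in control and 11.2 to 12.7 with IL-4. Of that list Lck and Trbc2, called higher with IL-4, and Cd28, called lower, are not shown. Siglech and Ccr9 are lower in the IL-4 libraries, as is Cd4. They are the 2 of 7 tested plasmacytoid dendritic cell markers called lower with IL-4, and the 1 called higher is not shown.

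The whole list of 8 plasmacytoid dendritic cell markers was summed at 15.4 to 22.7 FPKM in control, 17.4 to 69.6 in IL-4-treated and 13.3 to 22.3 in IL-6-treated Mϕs. Of its 7 tested genes 2 were called lower with IL-4 and 1, Cox6a2, higher. The call of Cox6a2 did not hold after adjustment for library set, without moderation of the variance (eBayes) or with only the groups compared. Nor did it hold without control library 1 or 3. Granulocyte markers also moved with the locus genes. Of 9 genes 8 were called lower with IL-4, where 8.89% of all tested genes were called lower and 5.02% higher. The summed level of the 9 went from 4747 to 8475 FPKM in control to 2143 to 3982, against 7907 to 10991 with IL-6. The number called lower was 5 without control library 2 or 3 and 3 after adjustment for library set. NK cell markers were summed at 1.12 to 1.30 FPKM in control, 22.6 to 42.5 in IL-4-treated and 0.817 to 1.61 in IL-6-treated Mϕs, with Gzma called higher with IL-4. B cell markers were summed at 28.5 to 50.8, 23.8 to 31.7 and 19.9 to 33.3 FPKM, in control, IL-4-treated and IL-6-treated Mϕs, and fibroblast markers stayed below 0.879 FPKM in every library. The part of these other cells in the levels of Cd4, Gpr162 and P3h3 was not tested.

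The known partners of CD4 and LAG3 were read from a fixed list of 8 ligand genes, of which 6 were tested. With IL-4, 4 were called higher and 1 lower, where 5.02% of all tested genes were called higher and 8.89% lower. The MHC class II genes H2-Aa, H2-Ab1 and H2-Eb1, whose products both receptors bind, had log2 fold changes of 3.62, 3.92 and 3.53, and H2-Aa went from a mean of 82.5 to 1019 FPKM (adjusted p = 6.1e-06). Lgals3, the galectin-3 gene, had 1.07 (adjusted p = 0.0264), a call that did not hold without control library 1 or 3 or IL-4 library 3. Il16, which encodes a cytokine that uses CD4 as its receptor, was lower, from a mean of 6.13 to 1.78 FPKM (log2 fold change −1.73, adjusted p = 0.000179). Thus the MHC class II ligands rose where Cd4 was lowest. With IL-6 only Lgals3 of the 6 was called, lower, with −1.31 (adjusted p = 0.0275), where 5.38% of all tested genes were called in either direction. That call was lost after adjustment for library set, with median-ratio rescaling and without moderation of the variance (eBayes). It was also lost without control library 2 or 3 or any 1 IL-6 library.

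Genes of receptor shedding and co-receptor signaling were mixed. For the counts given here, 5.02% of all tested genes were called higher with IL-4 and 8.89% lower. Of 9 genes 5 were tested, and with IL-4 Lck (log2 fold change 1.21, adjusted p = 0.00677) and Fyn (1.80, adjusted p = 0.000341), both Src-family kinase genes, were called higher, of which the call of Lck was lost in the settings named above. Adam17, whose protease sheds LAG3, was called lower (−1.07, adjusted p = 0.0247), a call that did not hold with median-ratio rescaling or without control library 1 or 3 or IL-4 library 3. Of 15 transcription factors known to act on Cd4 in T cells, 10 were tested. Myb (−1.04, adjusted p = 0.0215) and Patz1 (−1.12, adjusted p = 0.0125) were called lower with IL-4, but neither call held with median-ratio rescaling or without IL-4 library 3, nor that of Myb without control library 2 or 3. Runx3, a factor that silences Cd4 in cytotoxic T cells, was called higher with IL-6, from a mean of 1.19 to 4.18 FPKM (log2 fold change 1.74, adjusted p = 0.00221), while Cd4 itself was not called there.

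Paralogs of the locus genes elsewhere in the genome were read in the same way. Of 13 paralogs 8 were tested, and 2 were called with IL-4, both higher, where 5.02% of all tested genes were called higher. Gnb4, a G protein beta subunit gene like Gnb3, went from a mean of 0.454 to 2.81 FPKM (log2 fold change 2.37, adjusted p = 0.000187). Spsb4, a SOCS box gene like Spsb2, went from a mean of 0.951 to 4.42 FPKM (log2 fold change 2.14, adjusted p = 0.000518).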

How the data were processed

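The authors deposited FPKM of 53379 genes for 9 libraries of polyadenylated RNA (stranded TruSeq kit). The submitters' processing notes name STAR 2.4.2a, Cufflinks 2.2.1 and GRCm38. The strand setting is not given in the sources used here. Identifiers matched GENCODE M21 with their version for 94.8% of genes, and positions come from M21. Of 92600 values of low fragment number, 100.0% were whole fragments within 0.05 over the union of exons, so fragments were recovered. Whole steps are unlike an estimate of abundance, and which program and annotation made the values is unclear. The 12824 genes with a mean of at least 0.5 FPKM were fitted as log2(FPKM + 0.1), a log2 scale computed here from the deposited FPKM, with limma 3.58.1 (R 4.3.3), 3 groups in 1 fit, eBayes with trend and robust options, and Benjamini-Hochberg adjustment over all tested genes. Every adjusted p comes from limma, and fold changes on this scale understate changes of low genes. Ratios are of mean FPKM. Single genes also had a two-sided exact permutation test of 3 against 3 libraries. The fit was tested on simulated data.

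The locus genes, marker lists and pathway lists were chosen with earlier results of these data known. Named are all locus genes, tested neighbors within 500 kb called in any comparison, the 5 genes nearest in profile to Cd4, Gpr162 and Lag3, and list members called in a comparison. Mlf2, Cops7a, Eno2 and Tpi1 were named by position after their values were seen. Alternatives were other pseudocounts (1 and 0.01), filters (none, or a mean of at least 5 FPKM), scalings, fits, windows and leaving out each library. The set of libraries without Lyz1, and removal of each library's trend on exon length (spline with 5 degrees of freedom), were chosen after seeing the data. P-values measure the spread between libraries, which may be partly technical, and fragment counts carry counting error only. Tables and plots used Python 3.11.15, numpy 2.4.6, pandas 2.3.3, scipy 1.17.1 and matplotlib 3.10.9.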

Additional observations from a re-analysis of the deposited data

How the results depend on the processing

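The log2 fold changes of Cd4, Gpr162 and P3h3 with IL-4, a description since they chose the genes, ranged from −6.27 to −4.55, −7.33 to −4.69 and −3.65 to −2.19 over the alternatives. The count of locus genes called was 3 to 4 with IL-4 when each library was left out in turn, 4 in every such fit between IL-6 and IL-4, and 0 for IL-6 against control in every alternative. The neighbors called lower with IL-4, 4 in the reported fit, were 1 with a pseudocount of 1 and with a mean of at least 5 FPKM, 2 without a filter, with only the groups compared and after adjustment for library set, 11 at an adjusted p under 0.05 alone, 0 within 100 kb, 5 within 1000 kb (beside 2 higher, and with −2.38 as the lowest value), and 2 to 5 when each library was left out. Over all tested genes 1140 of 12824 were called lower with IL-4 in the reported fit, and 695 of 12824 with a pseudocount of 1. There were 526 of 6559 with a mean of at least 5 FPKM and 1194 of 31047 without a filter. With only the groups compared there were 820 of 12824, and 598 of 12824 after adjustment for library set. The count over all tested genes at an adjusted p under 0.05 alone is not given here. The neighbors called with IL-6, 2 in the reported fit, were 1 with a pseudocount of 1 and after adjustment for library set, 0 with a mean of at least 5 FPKM and within 100 kb, 3 within 1000 kb, of which 1 was lower (−1.41), and 2 to 3 when each library was left out. Over all tested genes 690 of 12824 were called with IL-6 in the reported fit, and 531 of 12824 with a pseudocount of 1. There were 187 of 12824 after adjustment for library set and 306 of 6559 with a mean of at least 5 FPKM. Among values above their standard error in size, the direction turned for Cd4 with IL-6 (−0.19 adjusted for library set), Usp5 with IL-4 (0.10 with median-ratio rescaling and 0.10 with the length trend removed), Lpar5 with IL-6 (0.27 adjusted for library set) and Plekhg6 with IL-4 (0.043 with quantile normalization, 0.29 adjusted for library set, and from −0.74 to 0.058 when each library was left out, the latter without IL-4 library 3). Ptms, Lag3, Cdca3, Scnn1a and Vamp1 with IL-6, all below their standard error, also changed sign under at least 1 alternative. Fewer genes were tested at a mean of at least 5 FPKM, where P3h3 and Lag3 were left out. The cause of the other changes was not tested.

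Libraries share replicate numbers, but the labels do not say that a number marks a mouse. Deviations from the group means correlated between same-numbered libraries at r = 0.521, −0.415 and 0.0777 for control and IL-4, 0.408, 0.201 and 0.166 for control and IL-6, and 0.281, −0.0612 and 0.153 for IL-4 and IL-6, across genes. With the replicate number as a block, the counts of locus genes called did not change (4 for IL-4, 0 for IL-6 and 4 for IL-6 over IL-4), and 4 neighbors were called lower with IL-4. Depth limits Gnb3, and the IL-4 levels of Gpr162 and Cd4.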

Other observations

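Of 3 non-coding genes annotated within 100 kb of Cd4, 2 were tested. A230083G16Rik, an antisense gene on the plus strand that overlaps Ptms, was at 1.503, 0.942 and 1.41 FPKM in control, 0.443, 0.699 and 0.0506 in IL-4-treated and 1.36, 2.10 and 1.81 in IL-6-treated Mϕs. All IL-4 libraries were below the others, with 2 to 21 fragments each, and its log2 fold change was −1.76 with IL-4 (limma adjusted p = 0.0543) and 2.18 between IL-6 and IL-4 (limma adjusted p = 0.0189). Gm23851, a small nuclear RNA gene, overlapped between all groups, with 0 to 17 fragments per library. Both genes were named after their values were seen.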
